A study of Mus musculus with 8 samples.

Results

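The epidermal growth factor (EGF) family was followed in 9 genes: the ligands Hbegf, Areg, Ereg, Tgfa and Btc, the receptors Egfr, Erbb2 and Erbb3, and Errfi1, which encodes an inhibitor of these receptors. The genes were taken by symbol, through every probe set that the array annotation pairs with one of these symbols alone. That gave 18 probe sets for 8 of the 9 genes, of 12393 genes with a probe set named in that way. No probe set carried the symbol Areg alone in the annotation used here, and Areg was not analysed here. Signals came from 8 mouse arrays in 4 groups of 2, made from E11 embryonic fibroblasts that had passed through crisis, either wild-type (WT) or Med23-/- (KO). All cells were kept for 16 h in 0.5% serum. In each genotype, 1 pair of arrays came from cells harvested at that point and 1 pair from cells then given 20% serum for 30 min. The question set for the study was which serum responses are altered when MED23, a subunit of the Mediator complex, is missing. The labels do not say whether a genotype was represented by several lines or embryos, so KO and WT also differ by whatever else separates these cultures.

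EGF-family ligands are made as membrane proteins and are freed by metalloproteases of the ADAM family. They bind EGFR or its relatives, which pair up, phosphorylate each other and start the Ras and MAP kinase cascade. Erbb2 has no known ligand of its own and serves as a partner, and Erbb3 has very weak kinase activity and also signals through partners. Serum switches on transcription of some ligands and of the inhibitor Errfi1 within minutes in many cell types, so the family holds both a forward and a backward arm of the same response. In fibroblasts EGFR is the usual receptor of the family, and several of the ligands are best known from epithelia.

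Trimmed mean signals of the 8 arrays ran from 2500.62 to 2500.76, and replicate arrays correlated at r between 0.976 and 0.984 over the tested probe sets. Med23 read 4901 and 5410 in starved WT cells against 28.0 and 133 in starved KO cells, and Egr1, a standard serum-response gene, rose in both genotypes. Of 14 fibroblast markers, 11 to 13 reached the 40th percentile of their array, but Thy1 did so on 0 of the 8 arrays, and Pdgfra and Lum did so on the 4 KO arrays and on none of the WT arrays. Col1a2 differed within the WT groups, at 581 and 8871 on the starved and 743 and 9443 on the stimulated arrays of set 1 and set 2, and read 62376 to 91077 on the KO arrays. Of the 13 fibroblast markers tested, 10 were higher and 1 lower in starved KO cells, and 8 higher and 2 lower after serum. The higher ones in both states include Pdgfra and Lum, which entered the test through the KO arrays alone. Of all tested genes, 49.5% and 51.6% differed in either direction in those comparisons, at a limma adjusted p under 0.05. Dcn was lower in both states, by -1.13 (adjusted p = 0.00548) and -0.86 (adjusted p = 0.0212) on the log2 scale. Summed fibroblast marker signal ran from 230751 to 252702 on the WT arrays and from 374378 to 500545 on the KO arrays. The summed signal of 12 epithelial markers, tissue in which these ligands are also made, ran from 2664 to 3672 and from 2076 to 2903, with 2 to 3 of them at or above the 40th percentile on each array. Epcam and Cdh1 were below it on all 8 arrays, while Krt8, Grhl2 and Krt19 reached it on 5, 6 and 4. Krt19 read 607 to 930 on the WT arrays and 15 to 206 on the KO arrays, the reverse of most fibroblast markers. Schwann cell and neural crest markers, endothelial, blood and skeletal muscle markers had at most 2, 1, 2 and 1 members at that level on any array. The part of cell makeup in the genotype differences below was not tested. In such bulk RNA, fewer cells that make a transcript and less transcript in each cell cannot be told apart.

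A probe set was tested when it reached the 40th percentile of its array, a signal between 413 and 497, on at least 2 of the 8 arrays. Of the 18 member probe sets, 13 passed, and they represent Hbegf, Tgfa, Btc, Egfr, Erbb2 and Errfi1, while both Erbb3 probe sets and the Ereg probe set did not. Differences are given on the scale of log2 (signal + 16), with the standard error (SE) and the adjusted p of limma's test over 14947 probe sets, and called means an adjusted p under 0.05. In WT cells serum raised 4 of the 13 member probe sets and lowered 0, where 4.14% of all probe sets were called in either direction. In KO cells 4 rose and 1 fell, where 23.1% of all probe sets were called. KO cells differed from WT cells in 8 of the 13 when starved (6 higher, 2 lower) and in 8 after serum (5 higher, 3 lower). Of the 13, Egfr 1424932_at and 1454313_at reached the filter level on no WT array, and without them the genotypes differed in 7 of 11 in each state. The 7 still include Tgfa 1421943_at, which reached that level on 1 WT array and so passed only with the KO arrays. Egfr 1432647_at, also at that level on 1 WT array, was not called. The shares of 8 of 13 and 7 of 11 stand beside 47.6% and 50.2% of all probe sets called in those comparisons, so a difference between the genotypes was common across the array. The difference between the serum responses of KO and WT cells was called for 0 of the 13, where 2.69% of all probe sets were called, and 5 of the 13 had an unadjusted p under 0.05. The median log2 difference of the 13 was 0.31 for serum in WT cells, -0.05 for serum in KO cells, -0.47 for the difference of responses, 0.52 between starved KO and WT cells and -0.02 between stimulated ones. Over all tested probe sets the corresponding medians were -0.05, -0.13, -0.06, -0.01 and -0.07.

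**Figure D1:**
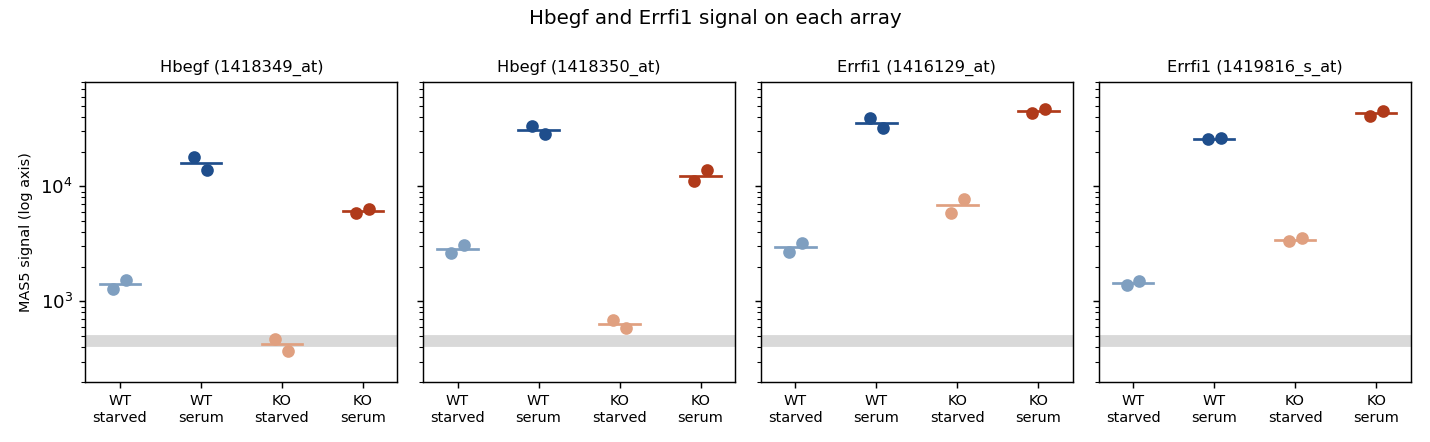
MAS5 signal on a log axis for the 2 Hbegf and 2 Errfi1 probe sets, by group. Points are the 2 arrays of a group, short lines their mean, and the grey band spans the 40th percentiles of the 8 arrays; serum arrays lie above starved arrays in every panel, with Hbegf lower and Errfi1 higher in KO than in WT cells.

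Hbegf, the heparin-binding ligand of EGFR and ERBB4, was the ligand that serum raised in both genotypes, and its signal was lower in KO cells in both states. Its brighter probe set, 1418350_at, read 2629 and 3057 in starved WT cells and 33172 and 28607 after serum. In KO cells the same probe set read 682 and 590 before and 11047 and 13735 after serum. No 2 of the 4 groups overlapped, and their order from low to high was starved KO, starved WT, stimulated KO and stimulated WT. The rise was 10.8-fold in WT cells (log2 3.43 ± 0.151 SE, adjusted p = 8.02e-07) and 19.0-fold in KO cells (log2 4.25 ± 0.151, adjusted p = 5.79e-08). The second probe set, 1418349_at, read 1282 and 1538 in starved WT cells and 18093 and 13974 after serum, against 475 and 373 and then 5905 and 6358 in KO cells. It gave the same order of groups, with rises of 11.2-fold in WT and 14.1-fold in KO cells. Ranked by log2 difference among all 14947 tested probe sets, the pair stood at places 25 and 26 for serum in WT cells and at places 24 and 34 for serum in KO cells.

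Starved KO cells held less Hbegf than starved WT cells, by 4.38-fold on 1418350_at (log2 -2.13 ± 0.151, adjusted p = 2.61e-06) and 3.25-fold on 1418349_at (log2 -1.70 ± 0.175, adjusted p = 3.38e-05). After serum the deficit was 2.50-fold (log2 -1.32 ± 0.151, adjusted p = 6.83e-05) and 2.59-fold (log2 -1.37 ± 0.175, adjusted p = 0.000137). The mean signal of 1418350_at in stimulated KO cells was thus 0.401 of that in stimulated WT cells. The response itself differed between genotypes by 0.81 ± 0.213 on 1418350_at, with a 95% confidence interval of 0.34 to 1.29 and adjusted p = 0.0776. That value was 0.49 with a pseudocount 16 times as large, 0.59 after quantile normalization and 0.87 after median centring, and was not called in any of these. On 1418349_at that difference was 0.33 ± 0.248, with an interval of -0.22 to 0.88 and adjusted p = 0.518, and it was -0.05 with a pseudocount 16 times as large. The signal of starved KO array 2 on 1418349_at was under that array's 40th percentile of 497. Hbegf levels thus differed between the genotypes on both probe sets, and a difference of the responses was not called on either.

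No probe set of another ligand was called for serum. Tgfa, which encodes TGF-alpha, a ligand of EGFR, had 3 probe sets, of which 2 were tested. The brightest, 1450421_at, read 727 and 776 in starved WT, 954 and 872 in stimulated WT, 886 and 859 in starved KO and 747 and 880 in stimulated KO cells. Its change with serum was 0.28 on the log2 scale in WT cells (95% confidence interval -0.13 to 0.69) and -0.10 in KO cells (-0.51 to 0.31), and neither was called. Between the genotypes its differences of 0.21 in starved and -0.17 in stimulated cells were not called. The dimmer probe set, 1421943_at, read 463 and 399 in starved WT cells against 917 and 705 in starved KO cells, and 504 and 410 against 735 and 835 after serum. This probe set reached the filter level on the 4 KO arrays and on 1 WT array. It passed the filter only with the KO arrays, where it was high, so its calls do not test the genotypes. Its KO arrays lay above the WT arrays, by 1.84-fold when starved (log2 0.88) and 1.70-fold after serum (log2 0.76). The starved call was lost without starved WT array 2 (log2 0.77) or starved KO array 1 (log2 0.69). The stimulated call was lost without stimulated WT array 2 (log2 0.62) or either stimulated KO array (log2 0.85 and 0.67). The remaining one, 1421942_s_at, read 151 to 318 and was not tested. A genotype difference of Tgfa was thus called only on the probe set that passed with the KO arrays, and not on the brighter 1450421_at.

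Btc, which encodes betacellulin, a ligand of EGFR and ERBB4, stayed near the middle of the signal range. Its brighter probe set, 1435541_at, read 695 and 681 in starved WT, 867 and 744 in stimulated WT, 570 and 678 in starved KO and 447 and 604 in stimulated KO cells. The serum changes of 0.22 (95% confidence interval -0.29 to 0.73) in WT and -0.25 (-0.76 to 0.25) in KO cells were not called. After serum the KO arrays lay below the WT arrays by 1.53-fold (log2 -0.61 ± 0.227, adjusted p = 0.0454). That adjusted p rose to 0.096 after quantile normalization, 0.0843 after median centring, 0.0833 without the filter and 0.0511 with the replicate block. It was 0.0579 in a fit on those groups only, and 0.0628 to 0.259 without either starved WT array, either stimulated WT array or stimulated KO array 1. The other Btc probe set read 37.8 to 96.6 and was not tested. Ereg, which encodes epiregulin, was low throughout: its probe set read 51.0 and 76.0 in starved WT, 253 and 128 in stimulated WT, 58.4 and 141 in starved KO and 103 and 54.9 in stimulated KO cells. The stimulated WT arrays lay above the starved WT arrays, but all 8 signals were below the 40th percentile of their arrays and no test was made.

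**Figure D2:**
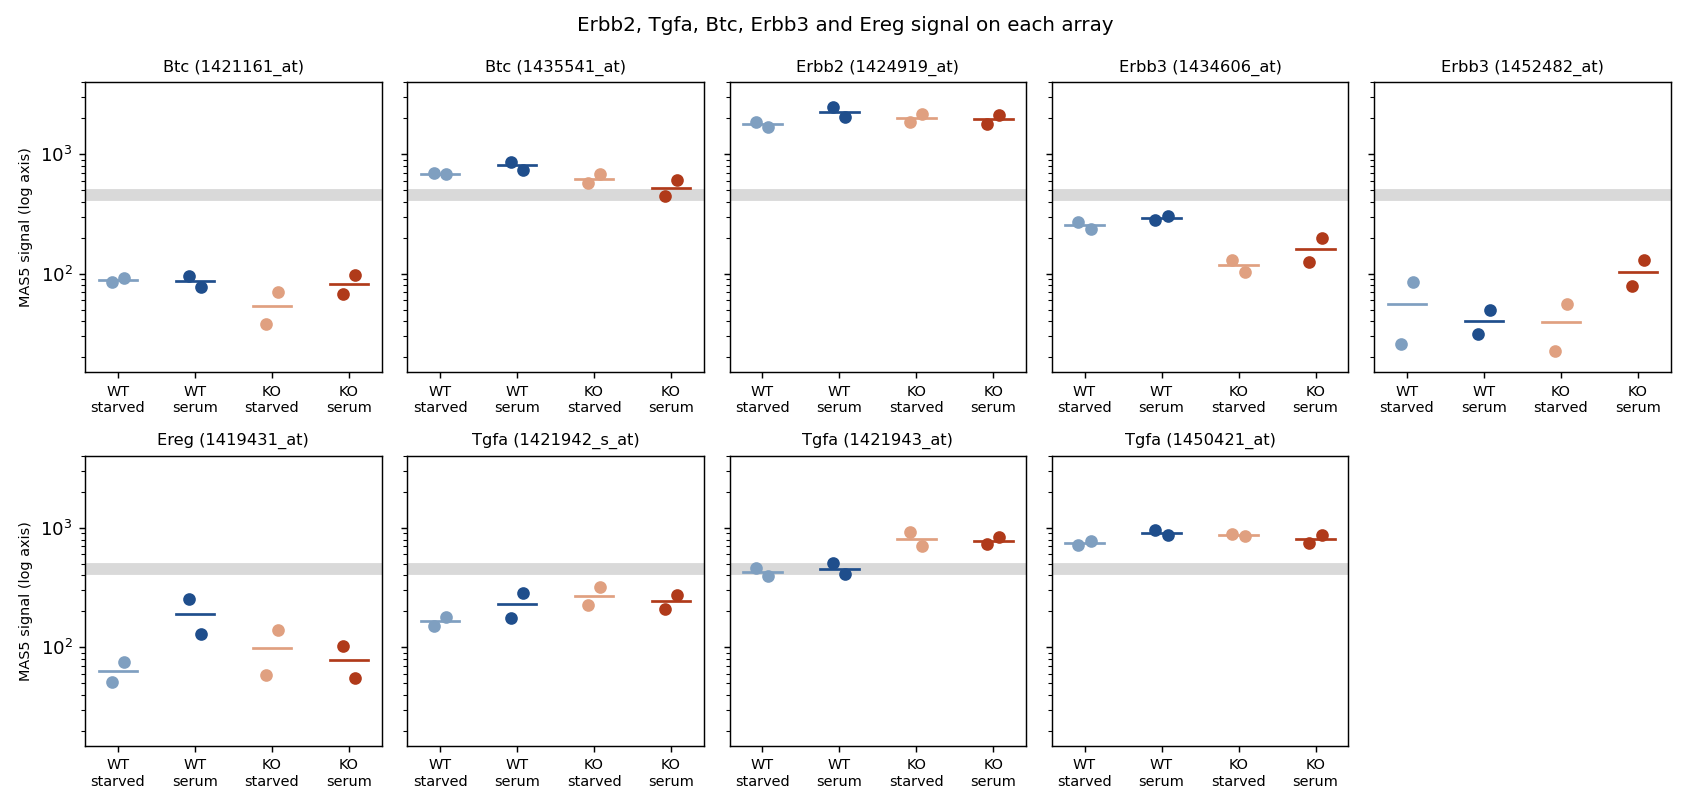
MAS5 signal on a log axis for the probe sets of Btc, Erbb2, Erbb3, Ereg and Tgfa, by group, drawn as in the plot of Hbegf and Errfi1. The Erbb3, Ereg, dimmer Btc and 1421942_s_at Tgfa points all lie below the grey band of 40th percentiles, and Erbb2 lies above it in every group.

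Egfr, the receptor that all 5 ligands of the list can bind, had KO arrays above the WT arrays on 3 of its 5 probe sets in both serum states. How many of all probe sets separated in this way was not counted. Of the 3, 2 were measured in both genotypes and called in both states. Of all probe sets, 47.6% and 50.2% were called between the genotypes in starved and stimulated cells, in either direction. On 1424932_at the WT signals were 451 and 309 when starved and 407 and 438 after serum, and the KO signals were 3708 and 4845 and then 4830 and 3788. The WT and KO arrays did not overlap, but all 4 WT signals were under the 40th percentile of their arrays, and the probe set passed the filter through the KO arrays alone. It therefore gives a bound and no test: with WT signals raised to that percentile, KO cells were at least 8.70-fold higher when starved and at least 8.65-fold higher after serum. Its fitted log2 difference in starved cells was 3.45, and 2.83 with a pseudocount 16 times as large. On 1451530_at the signals were 568 and 429 in starved WT, 646 and 590 in stimulated WT, 3441 and 3472 in starved KO and 2624 and 2606 in stimulated KO cells. The signal of starved WT array 2 was under that array's 40th percentile of 463, and the other 3 WT signals reached the filter level. KO cells stood 6.81-fold above WT cells when starved (log2 2.77 ± 0.172, adjusted p = 1.16e-06) and 4.15-fold after serum (log2 2.05 ± 0.172, adjusted p = 8.62e-06).

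The brightest Egfr probe set, 1460420_a_at, gave a smaller difference in the same direction. It read 1771 and 1612 in starved WT, 2458 and 1835 in stimulated WT, 4829 and 4688 in starved KO and 3285 and 3335 in stimulated KO cells. KO exceeded WT by 2.80-fold when starved (log2 1.48 ± 0.155, adjusted p = 3.69e-05) and by 1.55-fold after serum (log2 0.64 ± 0.155, adjusted p = 0.0066). The stimulated difference was 0.43 with adjusted p = 0.0575 without stimulated WT array 2. Probe sets 1432647_at and 1454313_at read 406 to 725 and 262 to 696, near the filter level, and in both the starved KO arrays lay above the starved WT arrays while the stimulated groups overlapped. Neither was called between the genotypes. The starved difference was thus 2.80-fold on 1460420_a_at and 6.81-fold on 1451530_at, where 1 starved WT array was under the filter level, with the bound for 1424932_at above both. Which transcript each probe set reads was not determined here.

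Serum gave 1 call among the Egfr probe sets, in KO cells. On 1460420_a_at the stimulated KO arrays lay below the starved KO arrays, by 1.44-fold (log2 -0.52 ± 0.155, adjusted p = 0.0361). The adjusted p was 0.0549 after quantile normalization, 0.0864 after median centring, 0.0511 without the filter and 0.0594 without the trend, and 0.0892 to 0.152 without any single KO array. In WT cells the stimulated arrays lay above the starved ones, by 0.33 (95% confidence interval -0.02 to 0.67), which was not called. On 1451530_at the arrays were ordered likewise, with stimulated above starved in WT and below starved in KO cells, and on 1424932_at the groups overlapped in both genotypes. The difference between the responses was -0.85 ± 0.219 on 1460420_a_at (adjusted p = 0.0744) and -0.71 ± 0.244 on 1451530_at (adjusted p = 0.157). Neither of these passed. On 1424932_at the fitted difference was -0.16, but its WT signals were all under the filter level, so it does not test the responses. In KO cells the change of 1424932_at with serum was 0.01 (95% confidence interval -0.48 to 0.50), which was not called.

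**Figure D3:**
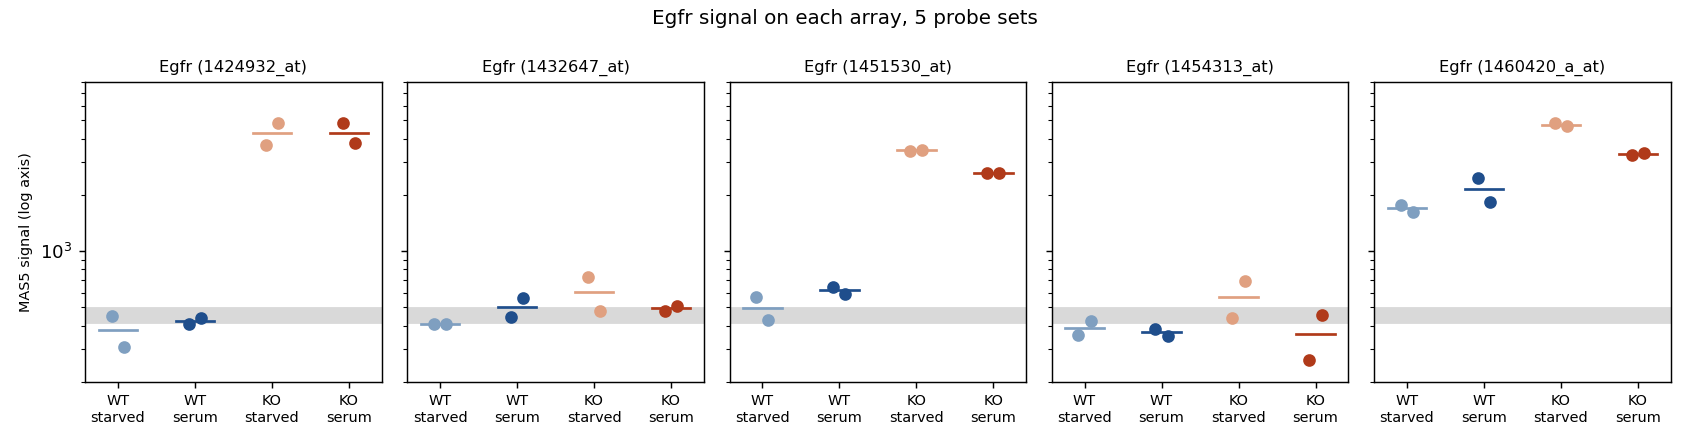
MAS5 signal on a log axis for the 5 Egfr probe sets, by group, drawn as in the plot of Hbegf and Errfi1. The KO points stand clear of the WT points on 1424932_at, 1451530_at and 1460420_a_at, and lie close to them on 1432647_at and 1454313_at.

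Erbb2, the partner receptor, was measured well above the filter in every group. It read 1855 and 1703 in starved WT, 2510 and 2043 in stimulated WT, 1875 and 2166 in starved KO and 1791 and 2127 in stimulated KO cells. Both stimulated WT arrays and both starved KO arrays lay above the starved WT arrays, the stimulated groups overlapped, and no comparison was called. Its log2 difference between KO and WT was 0.18 in starved cells (95% confidence interval -0.18 to 0.54) and -0.21 after serum (-0.58 to 0.15). With serum it changed by 0.35 in WT cells (-0.02 to 0.71) and by -0.05 in KO cells (-0.41 to 0.32). Erbb3, the neuregulin receptor with weak kinase activity, stayed under the 40th percentile on all 8 arrays. Its brighter probe set read 272 and 235 in starved WT, 279 and 306 in stimulated WT, 131 and 104 in starved KO and 125 and 200 in stimulated KO cells. The WT arrays were thus the higher ones, without a test, but the second Erbb3 probe set read 22.5 to 130, with starved groups that overlapped and stimulated KO arrays above the WT ones.

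Errfi1, whose product (MIG6) binds the EGFR kinase domain and blocks it, rose with serum in both genotypes and, unlike Hbegf, was higher in KO cells. Probe set 1416129_at read 2700 and 3225 in starved WT, 38820 and 31825 in stimulated WT, 5822 and 7800 in starved KO and 43460 and 47311 in stimulated KO cells. The groups did not overlap, in the order starved WT, starved KO, stimulated WT and stimulated KO. The rise was 11.9-fold in WT (log2 3.57 ± 0.159, adjusted p = 8.02e-07) and 6.72-fold in KO cells (log2 2.75 ± 0.159, adjusted p = 2.28e-06). Probe set 1419816_s_at, whose suffix marks probes that may match several transcripts, read 1396 and 1506 and then 25501 and 26016 in WT cells. In KO cells it read 3328 and 3542 before and 40522 and 45277 after serum. Its rises were 17.6-fold (log2 4.14 ± 0.109, adjusted p = 2.39e-08) in WT and 12.4-fold (log2 3.64 ± 0.109, adjusted p = 2.9e-08) in KO cells. By log2 difference the pair ranked at places 11 and 22 of 14947 for serum in WT cells and at places 43 and 68 in KO cells.

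In starved cells Errfi1 was higher in KO than in WT by 2.28-fold on 1416129_at (log2 1.19 ± 0.159, adjusted p = 0.000194) and 2.35-fold on 1419816_s_at (log2 1.23 ± 0.109, adjusted p = 1.13e-05). After serum the difference was 0.37 ± 0.159 on 1416129_at (95% confidence interval 0.01 to 0.72, adjusted p = 0.0785) and 0.73 ± 0.109 on 1419816_s_at (adjusted p = 0.000351). The first of these was called after median centring (adjusted p = 0.0406), in a fit on those groups only (0.0147) and without either starved KO array (0.037 and 0.0374). The response differed between KO and WT cells by -0.82 ± 0.225 on 1416129_at (95% confidence interval -1.32 to -0.32, adjusted p = 0.0871) and by -0.50 ± 0.154 on 1419816_s_at (-0.84 to -0.16, adjusted p = 0.12). Neither passed, but both were called after quantile normalization, at -1.19 (adjusted p = 0.0326) and -0.77 (adjusted p = 0.0329), and the first also without starved KO array 1, at -1.03 (adjusted p = 0.0338). A smaller rise of Errfi1 in KO cells was thus a call only under some settings.

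**Figure D4:**
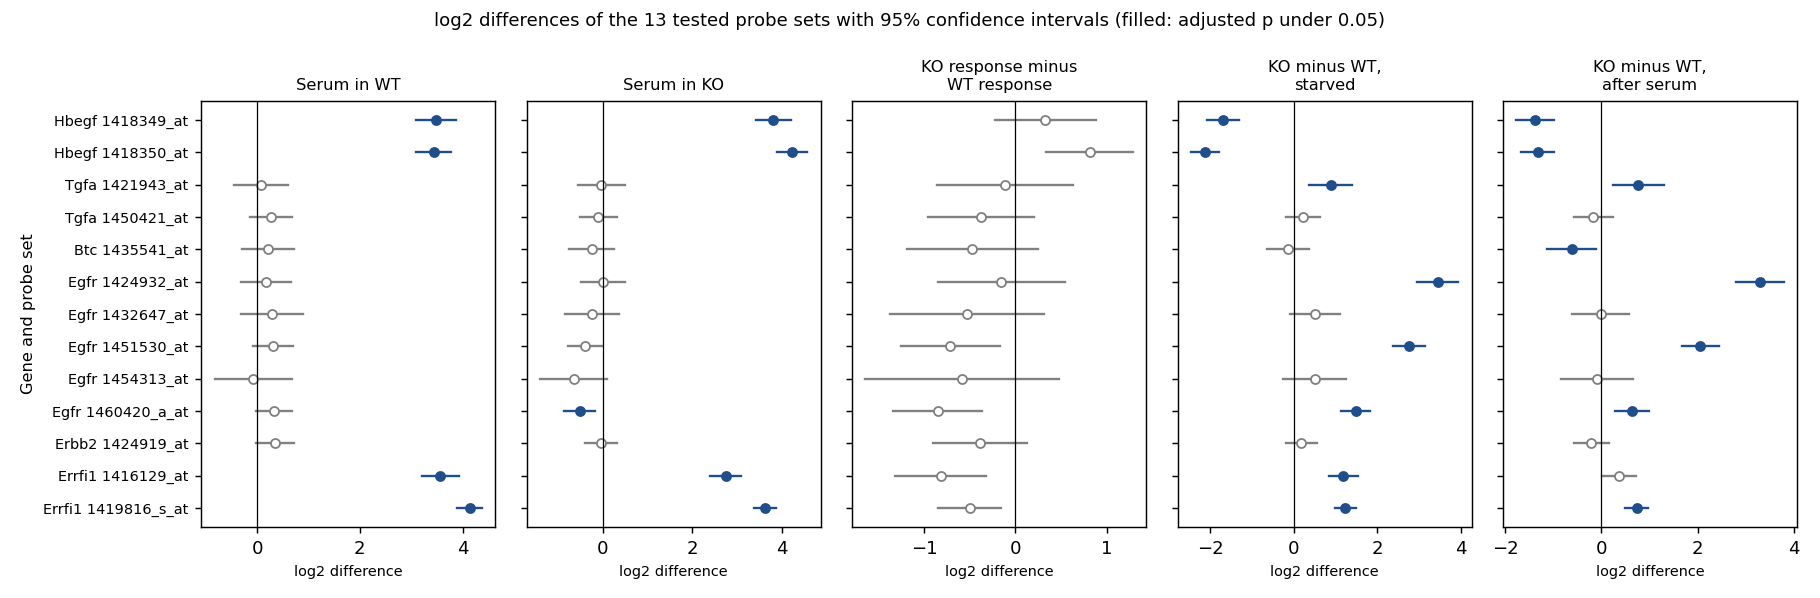
log2 differences (horizontal axis) of the 13 tested probe sets in the 5 comparisons, with 95% confidence intervals from the limma fit; filled blue points had an adjusted p under 0.05. Hbegf and Errfi1 stand to the right with serum in both genotypes, the called Egfr and Hbegf points stand on opposite sides of 0 between KO and WT cells, and no point is filled for the difference of responses. The filled points of Egfr 1424932_at and Tgfa 1421943_at belong to probe sets that passed the filter only with the KO arrays. They do not test the genotypes.

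Promoter sequences from RefSeq (build GRCm38.p6), 250 bases before to 50 after a transcript start, were matched by symbol to 6 of the 9 genes in 7 windows. They were searched on both strands for the cyclic AMP response element TGACGTCA, the AP-1 site TGAGTCA, the EGR site GCGNGGGCG and the CArG box bound by SRF. The factors that bind them are known targets of growth factor signalling, and no window of these genes held more than 1 match, so no matches overlapped. Over all 32851 windows, 1.79% hold the first, 5.20% the second, 5.55% the third and 1.63% the CArG box. Among the 7 windows, a match was found in the second Errfi1 window and in that of Areg, in both the cyclic AMP response element, with its first base 51 and 61 bases before the start. Hbegf, Ereg and Erbb3 had no window and were not searched. The 250 bases upstream of the starts are printed for Errfi1, which rose with serum, and for Egfr, which differed between the genotypes, with the matched motif in capitals. The first Errfi1 stretch lies at chr4:150853546-150853795, the second at chr4:150854820-150855069, and that of Egfr at chr11:16751953-16752202, all on the plus strand.
Errfi1, first start: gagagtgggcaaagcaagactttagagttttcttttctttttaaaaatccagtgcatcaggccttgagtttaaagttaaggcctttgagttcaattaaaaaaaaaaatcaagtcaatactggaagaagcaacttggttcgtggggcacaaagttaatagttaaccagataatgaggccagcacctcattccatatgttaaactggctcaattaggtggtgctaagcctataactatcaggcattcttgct
Errfi1, second start: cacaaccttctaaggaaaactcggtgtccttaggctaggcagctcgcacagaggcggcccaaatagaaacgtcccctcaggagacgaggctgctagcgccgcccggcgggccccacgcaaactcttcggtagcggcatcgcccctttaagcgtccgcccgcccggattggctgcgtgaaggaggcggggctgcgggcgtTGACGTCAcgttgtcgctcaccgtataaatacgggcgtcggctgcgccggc
Egfr: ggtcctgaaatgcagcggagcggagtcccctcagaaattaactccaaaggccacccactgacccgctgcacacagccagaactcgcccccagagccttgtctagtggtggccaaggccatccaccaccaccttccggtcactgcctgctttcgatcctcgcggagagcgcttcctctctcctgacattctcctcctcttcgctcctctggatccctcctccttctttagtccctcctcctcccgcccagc

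The genes whose pattern over the 8 arrays was most like that of a member were found by the root mean square difference of centred log2 signals. For Hbegf (1418350_at) they were Tnfaip3, an NF-kB feedback inhibitor, at 0.33, Egr1 at 0.48 and Klf10 at 0.53. Tnfaip3 averaged 798 and 10177 in starved and stimulated WT cells and 291 and 4519 in KO cells, with the same order of groups as Hbegf. For Errfi1 (1416129_at) they were Dusp2, a MAP kinase phosphatase, at 0.27, Ier3 at 0.50 and Egr3 at 0.52. Dusp2 averaged 320 and 3479 in WT cells and 622 and 6647 in KO cells, higher in KO cells in both states as Errfi1 was. For Egfr (1460420_a_at) Pitpnc1, Lgals3bp and Pear1 lay nearest, at 0.10, 0.11 and 0.12. In starved and stimulated WT cells Pitpnc1 averaged 284 and 371 and Pear1 344 and 384, all under the lowest 40th percentile of an array, 413. Lgals3bp averaged 1101 and 1388 in WT cells and 2879 and 2242 in KO cells. For Btc, whose differences were small, Rbfox2, Ncam1 and Dnpep lay at 0.07, 0.08 and 0.09. These distances describe 8 arrays of 4 groups and carry no test.

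The rest of the pathway was followed in lists of genes, each through its brightest probe set. The brightest probe sets of the 6 tested member genes gave 2 calls for serum in WT cells and 3 in KO cells, where 4.74% and 23.6% of 8446 genes were called. The other members of the family, Egf, Epgn, Nrg3, Nrg4 and Erbb4, were named on the array in 5 of 7 cases, and none passed the filter. Of the shedding proteins and their regulators, 9 were tested. Timp3, an inhibitor of metalloproteases that include the Hbegf-cleaving ones, rose with serum by 1.58-fold in WT cells (adjusted p = 0.0224) and 1.99-fold in KO cells (adjusted p = 0.0008). The WT call of Timp3 had adjusted p of 0.0512 to 0.175 under 5 alternatives, but its 3 other probe sets rose too. Rhbdf1, an inactive rhomboid that escorts the protease ADAM17, rose 1.42-fold in WT cells (adjusted p = 0.0399), a call lost under 8 alternatives, and no shedding gene was called lower with serum in either genotype. The median of the 9 was 0.02 in WT and -0.00 in KO cells, beside -0.06 and -0.16 over all genes.

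Between the genotypes, Adam17, the main protease that frees Hbegf and Tgfa, was higher in KO cells by 1.80-fold when starved (adjusted p = 0.000696) and 1.78-fold after serum (adjusted p = 0.000766). It read 2211 and 2104 in starved WT against 3556 and 4271 in starved KO cells. Of its other probe sets, both were called in starved cells, and after serum 1 gave 0.58 (adjusted p = 0.00987) and 1 gave 0.28 (adjusted p = 0.173). Adam12, another protease of the family, was lower in KO cells by 2.46-fold and 2.54-fold (adjusted p = 0.00514 and 0.00404), and Timp3 was lower in starved KO cells by 1.51-fold (adjusted p = 0.0047). In all, 1 shedding gene was higher and 3 were lower in starved KO cells, and 1 and 1 after serum, where 49.5% and 51.6% of all genes were called. The medians of the list were 0.06 and -0.13, beside 0.00 and -0.08 over all genes.

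Adaptors and the Ras and MAP kinase relay gave no call for serum in WT cells: limma called 0 of 22, and 2 had an unadjusted p under 0.05. In KO cells 2 rose and 3 fell, near the 23.6% of all genes called there. The median of the 22 was 0.10 in WT cells and -0.15 in KO cells, beside -0.06 and -0.16 over all genes. Akt1, a kinase below PI3-kinase, rose 1.47-fold on its brightest probe set (adjusted p = 0.0205), a call lost without starved KO array 2 or stimulated KO array 1, and another probe set gave -0.22. The calls of Pik3r1 (log2 -0.70) and Src (log2 -0.59), which fell, were lost under 6 and 9 alternatives. Src, a kinase that phosphorylates EGFR, was lower in KO cells by 2.34-fold when starved (adjusted p = 0.000252) and 4.49-fold after serum (adjusted p = 5.79e-06). It read 4588 and 3313 in starved WT, 5162 and 4824 in stimulated WT, 1740 and 1575 in starved KO and 1023 and 1179 in stimulated KO cells. Its other probe set was lower too, by -0.74 and -1.22 on the log2 scale. Stat3, a transcription factor that EGFR can activate, was higher by 2.06-fold and 2.18-fold (adjusted p = 6.54e-05 and 3.9e-05), though 1 of its other probe sets gave 0.46 after serum (adjusted p = 0.154). Ksr1, a scaffold of the MAP kinases, was higher when starved by 2.29-fold, and the adaptor Grb2 was lower after serum by 1.86-fold (adjusted p = 0.000192). Both were ordered likewise in the other state. Ksr1 read 934 and 902 in stimulated WT against 1508 and 1362 in stimulated KO cells. Grb2 read 6193 and 6203 in starved WT against 3720 and 3957 in starved KO cells. Starved KO cells had 6 of the 22 higher and 4 lower, and stimulated KO cells 5 higher and 7 lower, near the 49.5% and 51.6% of all genes called in those comparisons.

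Among genes for receptor down-regulation and trafficking, 25 were tested. For serum in WT cells limma called 0 of them, and 3 had an unadjusted p under 0.05. In KO cells 5 rose and 2 fell, beside 23.6% of all genes called there. The list medians were -0.03 and 0.06, beside -0.06 and -0.16 over all genes. Rab5a, a GTPase of early endosomes, rose 1.80-fold in KO cells (adjusted p = 0.000893) from 9112 and 8030 to 16797 and 14069, and read 11161 and 11240 and then 11551 and 11294 in WT cells. Its response differed between the genotypes by 0.82 ± 0.166 (adjusted p = 0.0326), the only call of the 3 tested lists in that comparison, where 2.72% of genes were called; its adjusted p lay between 0.0565 and 0.148 under 8 alternatives. Socs4 and Ptpn1, a suppressor of cytokine signalling and a tyrosine phosphatase, rose 1.79-fold and 1.77-fold in KO cells, and the call of Socs4 was lost without either stimulated KO array.

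Lrig1, which encodes a membrane protein that promotes degradation of EGFR-family receptors, was lower in KO cells by 5.93-fold when starved (log2 -2.57 ± 0.164, adjusted p = 1.38e-06) and 5.69-fold after serum (adjusted p = 1.63e-06). It read 5255 and 6647 in starved WT, 5563 and 5496 in stimulated WT, 1108 and 873 in starved KO and 985 and 934 in stimulated KO cells. A second probe set of Lrig1 was lower too, by -1.93 and -2.34 on the log2 scale, and the remaining one gave 0.48 and -0.34 and was not called. Rin1, a RAB5 activator, was lower by 2.55-fold and 3.22-fold, and Eps8, a substrate of EGFR, was higher by 2.34-fold and 3.25-fold, with all its probe sets called. Of the 25, starved KO cells had 4 higher and 8 lower and stimulated KO cells 6 and 6, near the 49.5% and 51.6% of all genes called. The list medians were -0.13 and -0.09, beside 0.00 and -0.08 over all genes.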

How the data were processed

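Total RNA from 8 samples was hybridised to 1 array each, and 2 arrays made up each of 4 groups. Per the submitters' processing notes the authors made the deposited intensity values with MAS5, with no version given; they are linear, positive and scaled by the authors to a common trimmed mean (2% at each end). Because MAS5 works from perfect-match minus mismatch probes, weak signals carry much error; detection calls were not used here. After removal of 64 control probe sets, 14947 of 22626 passed the filter and entered the test. Values were taken as log2 of signal plus 16 and fitted with limma 3.58.1 in R 4.3.3: the 4 group means, an intensity trend in eBayes, and two-sided p-values adjusted by Benjamini-Hochberg across every probe set that passed. The fit had 4 residual and 6.07 prior degrees of freedom. An exact permutation test of 2 against 2 arrays cannot go below p = 0.333, so calls rest on the pooled spread. The labels do not name separate cultures, so p-values measure the spread between these samples.

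Probe sets were named through the platform annotation, in which 20380 name a single gene, 691 several and 1555 none. A gene in a list was read by its brightest probe set, and up to 3 called genes per list and comparison with the largest difference were named. The members and lists were chosen with earlier results of these data known. Alternatives were other pseudocounts, scalings and filters, no trend, a fit on the groups compared, the set number as a block, 1 probe set per gene, and leaving out each array; for the pathway lists, and for counts without probe sets low on all WT arrays, they were added after seeing the data. The procedure was tested on simulated data for serum in WT cells only, with independent noise on each array, so the other comparisons were not covered. The number of arrays limits the precision.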

Additional observations from a re-analysis of the deposited data

How the results depend on the processing

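The counts of called member probe sets (4 for serum in WT cells, 5 in KO cells, 0 for the difference of responses, 8 and 8 between genotypes in starved and stimulated cells) were recomputed under 19 alternatives, or 18 for the difference of responses, which needs all 4 groups. With 1 probe set per gene they were 2, 3, 0, 3 and 3, since only 6 genes are then counted. Quantile normalization gave 2 calls for the difference of responses, both of Errfi1. Leaving out each array gave 0 to 1 calls there, the 1 without starved KO array 1, and 5 to 9 between stimulated KO and WT cells, the 5 without stimulated WT array 2. Of 888 recomputed member values, 843 kept direction and side of the threshold, 24 lost a call, 7 gained one and 14 changed sign; the rises of Hbegf and Errfi1, and the genotype differences of Hbegf in both states and of Errfi1 in starved cells, kept their calls under every alternative. The cause of these changes was not tested. Each value that changed sign was uncalled. Erbb2 with serum in KO cells was 0.0642 after quantile normalization, 0.0603 after median centring and -0.169 to 0.0770 without single arrays, and Tgfa (1450421_at) was 0.0585, 0.00299 and -0.219 to 0.0132. The difference of responses was -0.0472 for Hbegf (1418349_at) with a pseudocount 16 times as large, 0.0844 for Tgfa (1421943_at) after quantile normalization and -0.300 to 0.0715 without single arrays, and -0.419 to 0.106 for Egfr (1424932_at) without single arrays. With the set number as a replicate block the counts were 4, 5, 0, 8 and 7, and Btc in stimulated cells was the call lost. The block was shared by all groups, so it does not remove a set difference present in WT or KO cells alone. The labels do not say that set numbers pair the samples: deviations of set 1 correlated at 0.21 between the WT groups and 0.10 between the KO groups, and at -0.03 to 0.01 across genotypes. For serum in KO cells the relay list had 0 to 7 calls and the trafficking list 3 to 8 over the alternatives, and the shedding list 0 to 2 in WT cells. Signals of Ereg, Erbb3, the dimmer Btc probe set and Tgfa 1421942_s_at were too low for a test at this filter.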
